A study of Mus musculus with 12 samples.

Results

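The 10 genes described here, Slc41a2, Chst11, Crisp3, Ltk, Gsn, Tspan15, Grip2, Ms4a7, Samsn1 and Car2, were selected on array values that were lower when Bcl6 was deleted from B cells on both alleles than when both alleles were intact, in 1 or both of the splenic B cell types measured. They are 10 of 18193 genes with a probe set on the arrays and of 9306 genes that reached a log2 value of 4 on at least 2 of the 12 arrays, a filter that all 10 passed. Each gene was read from its probe set with the highest mean, matched by gene symbol. Because lower levels in flox/flox than in +/+ cells chose these genes, that difference is given below as a description with no test. The study measured total RNA of marginal zone (MZ) and follicular (FO) B cells from mouse spleen on Affymetrix 3' expression arrays, with 2 arrays in each of 6 groups. Each cell type came from mice with no floxed Bcl6 allele (+/+), 1 floxed allele (+/flox) or 2 floxed alleles (flox/flox). All mice were C57BL/6 females aged 10 weeks, and all of them, the +/+ mice included, carried 1 copy of mb1-cre, which places Cre recombinase under the B lineage gene Cd79a. The +/+ group therefore controls for Cre, and no group without Cre was analysed here. MZ cells were sorted as B220+AA4.1-CD21highCD23low and FO cells as B220+AA4.1-CD21intCD23+, after depletion with antibodies that included CD43, CD138, TER119 and Gr-1. Separate mice are not stated for the replicate arrays, so the p-values below rest on a spread that may be only technical.

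Markers fitted the sorted cell types. The mean of 9 MZ marker genes on the array was 11.98 to 12.61 (log2) on MZ arrays and 8.43 to 8.86 on FO arrays, and that of 5 FO marker genes was 9.26 to 10.3 on MZ arrays and 12.4 to 12.9 on FO arrays. Of the pair of Bcl6 probe sets, the dimmer one read 2.36 and 2.48 in FO flox/flox cells, against 4.94 and 5.61 in FO +/+ cells. The brighter one read 12.70 and 12.88 in FO flox/flox cells, against 11.95 and 11.65 in FO +/+ cells. No source used here names the deleted exons, so the genotype labels could not be checked with either of them. Replicate 1 of the MZ +/+ group stood apart: its Gapdh probes differed by 6.90 (log2) between the 3' and 5' ends, against -0.20 to 0.63 on the other arrays, and its correlation with its replicate was 0.944, against 0.975 to 0.984 in the other groups. The members' MZ values and counts are given below both with it and without it.

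BCL6 is a transcriptional repressor of the BTB zinc finger family, best known as the factor that germinal centre B cells depend on, and resting FO B cells also carry its transcript. MZ B cells stay at the border of the splenic white pulp, need Notch2 signals and respond quickly to blood-borne antigen, while FO B cells recirculate through lymphoid follicles. The 10 genes have varied roles: ion transport and enzymes (Slc41a2, Chst11, Car2), a secreted protein (Crisp3), membrane proteins (Ltk, Tspan15, Ms4a7), and cytoplasmic actin, adaptor and scaffold proteins (Gsn, Samsn1, Grip2).

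The stretch just upstream of the transcript start is shown for 6 genes that carry the patterns described below: the chromosomal neighbours Slc41a2 and Chst11, the MZ genes Tspan15, Grip2 and Ms4a7 and the FO gene Crisp3. The sequences are RefSeq's on build GRCm38.p6, 250 bases up to the start, 5′ to 3′ on the gene's strand. Capitals mark matches on either strand to ATGCAAA, which is 7 bases of the octamer motif that Oct1 and Oct2 bind, and to TATAAA. Ms4a7 has another window (chr19:11336147-11336396) that holds neither, and the one shown was taken because it holds ATGCAAA.
Slc41a2 (chr10:83337818-83338067, minus strand): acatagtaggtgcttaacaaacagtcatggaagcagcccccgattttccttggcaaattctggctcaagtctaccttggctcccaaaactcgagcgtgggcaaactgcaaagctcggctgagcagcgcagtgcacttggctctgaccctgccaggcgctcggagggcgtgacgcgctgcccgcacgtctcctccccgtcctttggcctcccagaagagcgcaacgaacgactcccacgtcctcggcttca
Chst11 (chr10:82985247-82985496, plus strand): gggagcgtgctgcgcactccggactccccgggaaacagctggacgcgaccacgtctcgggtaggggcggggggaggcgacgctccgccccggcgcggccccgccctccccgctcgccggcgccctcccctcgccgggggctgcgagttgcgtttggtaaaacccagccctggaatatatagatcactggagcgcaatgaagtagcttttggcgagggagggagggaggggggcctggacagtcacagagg
Crisp3 (chr17:40242289-40242538, minus strand): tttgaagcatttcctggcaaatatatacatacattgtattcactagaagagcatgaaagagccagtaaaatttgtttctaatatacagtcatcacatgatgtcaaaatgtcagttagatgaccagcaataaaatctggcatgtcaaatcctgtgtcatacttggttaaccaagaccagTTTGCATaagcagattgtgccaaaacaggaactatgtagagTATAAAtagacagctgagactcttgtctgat
Tspan15 (chr10:62231219-62231468, minus strand): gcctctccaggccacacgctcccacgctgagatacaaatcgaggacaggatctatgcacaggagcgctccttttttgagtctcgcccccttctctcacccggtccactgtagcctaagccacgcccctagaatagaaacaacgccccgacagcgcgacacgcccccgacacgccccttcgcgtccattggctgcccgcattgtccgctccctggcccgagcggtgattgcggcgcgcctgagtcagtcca
Grip2 (chr6:91807394-91807643, minus strand): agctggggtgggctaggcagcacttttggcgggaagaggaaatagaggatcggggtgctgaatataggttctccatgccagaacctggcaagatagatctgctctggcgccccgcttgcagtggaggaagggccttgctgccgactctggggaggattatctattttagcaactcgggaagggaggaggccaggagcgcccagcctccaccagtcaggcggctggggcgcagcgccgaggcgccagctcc
Ms4a7 (chr19:11334696-11334945, minus strand): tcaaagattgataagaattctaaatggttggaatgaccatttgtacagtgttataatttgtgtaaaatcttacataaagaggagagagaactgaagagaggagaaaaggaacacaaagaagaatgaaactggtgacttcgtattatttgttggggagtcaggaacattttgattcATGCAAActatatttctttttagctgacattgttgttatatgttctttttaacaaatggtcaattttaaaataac

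RefSeq windows were matched for 9 of the 10 genes, 12 windows in all, and Car2 was not matched. The letters TTCCTAGAA, a form of the BCL6 site, were searched on both strands and are in 0.347% of all 32851 windows of this length and in 0 of the 12. The looser TTCNNNGAA, which contains the first form, is in 7.02% of all windows and in 0 of the 12. The full octamer ATGCAAAT is in 1.601% of all windows and in 0 of the 12. ATGCAAA, a form chosen with the Crisp3 sequence in view, is in 4.125% of all windows and in 2 of the 12. These are the Crisp3 window (72 bases before the start) and the Ms4a7 window shown (75 bases before), and not the other Ms4a7 window. The Crisp3 window also holds TATAAA on the gene's strand, 31 bases before the start, and 12.37% of all windows hold it on either strand. A match describes letters in the window and no more. The windows of Crisp3, Samsn1 and Ms4a7 were poor in G and C (35.6%, 38.4%, and 38.8% and 30.4%), while those of the other 6 genes held 56.0% to 70.0%, with a median of 52.4% over all windows.

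With homozygous deletion the levels of most of the genes were lower in both cell types, but Tspan15, Grip2 and Ms4a7 could be read only in MZ cells. On FO arrays these 3 lay near the lowest deposited value in every genotype, which leaves 7 of the 10 measured there. In MZ cells every flox/flox array was below every +/+ array for 9 of the 10 genes, all but Car2, against 21.3% of all 9306 genes, and without replicate 1 of MZ +/+ it held for the same 9, against 38.7% of all genes. In FO cells this held for 8 of the 10, Tspan15 among them by a small step near the minimum, against 15.9% of all genes. Since the same difference chose the genes, nothing is read from these counts. The choice gave no numeric threshold, and among the lower genes left out of it, those next in line in the fit were Tmed6 (-1.45), Npr2 (-0.97) and Zfp511 (-0.78) in MZ cells and H2-Eb2 (-1.19), Stx11 (-0.98) and Cd72 (-0.91) in FO cells. That order goes by p. In each cell type 5 members passed after adjustment, against 0.0537% of all 9306 genes called lower, which are those same 5 genes. The last of them by p was Ms4a7 in MZ cells (-1.15) and Crisp3 in FO cells (-3.51). The other members did not pass and came later in that order. Nothing is read from this count either, since the same difference chose the genes. In bulk RNA from sorted cells, fewer cells that express a gene and less of its RNA per cell cannot be told apart.

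**Figure D1:**
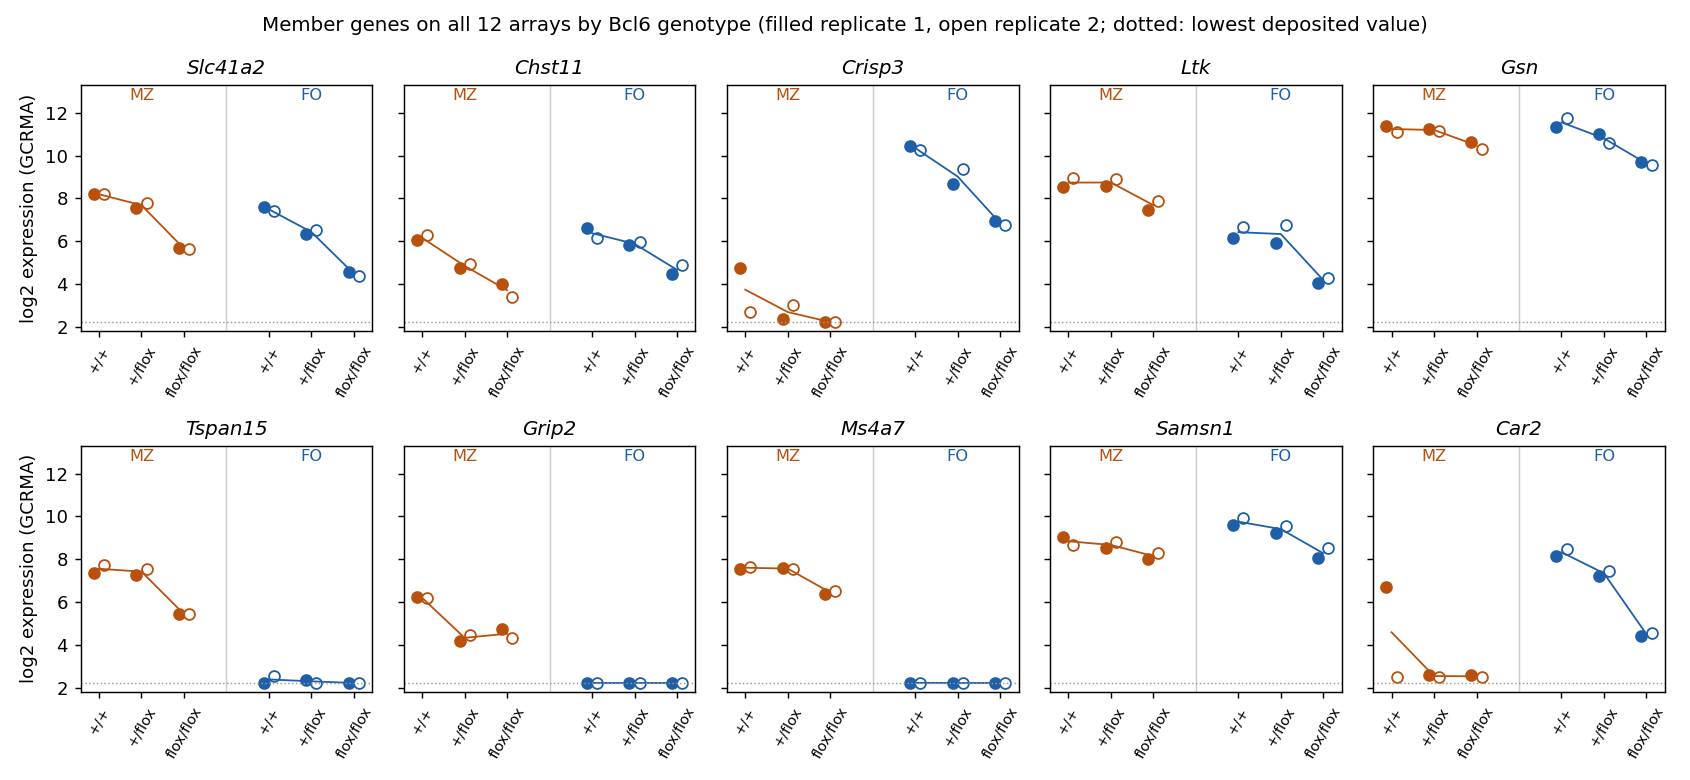
Deposited log2 value (y axis) of each of the 10 genes on each array, by Bcl6 genotype in MZ and FO cells (x axis), with replicate 1 filled, replicate 2 open and the lowest deposited value dotted. Slc41a2 and Chst11 step down with each floxed allele in both cell types, while Tspan15, Grip2 and Ms4a7 lie near the minimum on all FO arrays.

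The heterozygous arrays show how the levels follow the number of intact alleles. In MZ cells 2 members, Slc41a2 and Chst11, had +/flox arrays below every +/+ array and above every flox/flox array, a full order found for 1.86% of all genes. Without replicate 1 of MZ +/+ it held for 5, Slc41a2, Chst11, Ltk, Tspan15 and Ms4a7, against 4.28% of all genes. In FO cells it held for 6 members, Slc41a2, Chst11, Crisp3, Gsn, Samsn1 and Car2, against 1.52% of all genes. Step by step, every +/flox array was below every +/+ array for 3 members in MZ cells (17.8% of all genes; 6 members and 30.4% without that array) and for 6 in FO cells (10%). Every flox/flox array was below every +/flox array for 8 members in MZ cells (20.4% of all genes) and for 7 in FO cells (11.6%). These counts share arrays with the difference that chose the genes.

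Slc41a2, a magnesium transporter, was among the largest differences in both cell types. In MZ cells it read 8.20 and 8.18 on +/+ arrays, 7.56 and 7.81 on +/flox arrays, and 5.68 and 5.63 on flox/flox arrays. In FO cells it read 7.57 and 7.41 on +/+ arrays, 6.33 and 6.52 on +/flox arrays, and 4.58 and 4.38 on flox/flox arrays. The genotypes did not overlap in either cell type, and the +/flox arrays lay nearer to +/+ than to flox/flox. The flox/flox minus +/+ difference was -2.54 ± 0.16 (log2, SE, 2 arrays a group) in MZ cells, which is 5.81-fold lower (-2.53 without replicate 1 of MZ +/+), and -3.01 ± 0.16 in FO cells, 8.06-fold lower. The +/flox minus +/+ difference was -0.51 in MZ cells, or 20.2% of the homozygous difference on the log2 scale, and -1.06 in FO cells, or 35.3%.

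Chst11, which transfers sulfate to the 4-O position of chondroitin, lies next to Slc41a2 on chromosome 10 and likewise stepped down with each allele. Its MZ values were 6.04 and 6.27 on +/+ arrays, 4.75 and 4.95 on +/flox arrays, and 4.01 and 3.41 on flox/flox arrays. Its FO values were 6.61 and 6.13 on +/+ arrays, 5.80 and 5.95 on +/flox arrays, and 4.46 and 4.86 on flox/flox arrays. No groups overlapped, and in MZ cells the +/flox arrays lay close to the middle. The flox/flox minus +/+ difference was -2.45 ± 0.26 in MZ cells (-2.56 without replicate 1 of MZ +/+) and -1.71 ± 0.26 in FO cells. The heterozygous share of it was 53.4% in MZ cells and 29.0% in FO cells. A second Chst11 probe set averaged 2.39 and never exceeded 3.08.

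Car2, the cytosolic carbonic anhydrase II, had the largest difference of the 10 genes in FO cells and could hardly be read in MZ cells. In MZ cells it read 6.68 and 2.49 on +/+ arrays, 2.59 and 2.49 on +/flox arrays, and 2.57 and 2.49 on flox/flox arrays. Thus 1 array, replicate 1 of MZ +/+, was high and the other 5 were near the minimum. The MZ flox/flox minus +/+ difference of -2.06 became 0.04 without that array. In FO cells Car2 read 8.15 and 8.49 on +/+ arrays, 7.23 and 7.44 on +/flox arrays, and 4.43 and 4.56 on flox/flox arrays. The 3 genotypes did not overlap in FO cells, and the flox/flox minus +/+ difference was -3.83 ± 1.03, or 14.2-fold lower. That SE comes from a residual SD shared by all groups, which takes in the gap of 4.19 between the MZ +/+ arrays.

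Crisp3 encodes a secreted cysteine-rich protein and is known in mouse B cells as a gene under the control of Oct2. MZ cells held little of it, at 4.75 and 2.71 on +/+ arrays, 2.35 and 3.03 on +/flox arrays, and 2.22 on both flox/flox arrays. The high MZ value was again replicate 1 of +/+, without which the MZ difference of -1.51 became -0.49. In FO cells Crisp3 read 10.45 and 10.25 on +/+ arrays, 8.69 and 9.35 on +/flox arrays, and 6.94 and 6.74 on flox/flox arrays. The FO genotypes did not overlap, and the flox/flox minus +/+ difference was -3.51 ± 0.57, or 11.4-fold lower.

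Marker genes of other cell types were also read on that array. The erythroid genes Car1 and Ermap read 4.64 and 4.63 on it, against at most 3.69 and 2.39 on the 11 others. Of 10 erythroid markers on the array platform, 6, Hba-a1, Gata1, Klf1, Alas2, Epor and Rhag, were near the minimum on all 12 arrays, and the mean of the 10 was 3.73 on this array and 3.13 to 3.35 on the others. The neutrophil genes S100a8 and S100a9 read 8.11 and 7.93 on the same array. They were also high on replicate 1 of 3 other groups, at 7.63 and 7.04 in MZ flox/flox, 7.55 and 7.94 in FO +/flox, and 9.17 and 9.81 in FO flox/flox cells, and at most 2.66 on the other 8 arrays. Of 12 neutrophil markers on the array platform, 5, Elane, Mpo, Cxcr2, Csf3r and Mmp8, were near the minimum on all 12 arrays. The mean of the 12 was 3.92 on this array. On replicate 1 it was 3.51 in MZ flox/flox, 3.61 in FO +/flox and 4.47 in FO flox/flox cells. It was at most 2.44 on the other 8 arrays. The part of erythroid cells or neutrophils in the MZ values of Car2 and Crisp3 was not tested.

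Ltk, a receptor tyrosine kinase related to Alk, was lower in flox/flox cells and differed little with 1 floxed allele. In MZ cells the values were 8.52 and 8.96 on +/+ arrays, 8.59 and 8.90 on +/flox arrays, and 7.48 and 7.89 on flox/flox arrays. In FO cells they were 6.17 and 6.68 on +/+ arrays, 5.91 and 6.76 on +/flox arrays, and 4.07 and 4.30 on flox/flox arrays. In both cell types the +/flox and +/+ arrays overlapped while both flox/flox arrays were lower. The flox/flox minus +/+ difference was -1.05 ± 0.32 in MZ cells (-1.27 without replicate 1 of MZ +/+) and -2.24 ± 0.32 in FO cells. The +/flox minus +/+ difference was 0.01 in MZ cells and -0.09 in FO cells. Without replicate 1 of MZ +/+ the MZ value was -0.22, or 16.9% of the homozygous difference, and the MZ genotypes did not overlap. The replicate gap of 0.854 in FO +/flox cells was the widest of any member and group apart from Crisp3 and Car2 in MZ +/+ cells (2.04 and 4.19).

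Tspan15, a tetraspanin of the TspanC8 group that partners the protease ADAM10, had the same form in MZ cells. It read 7.37 and 7.73 on MZ +/+ arrays, 7.27 and 7.56 on +/flox arrays, and 5.43 and 5.44 on flox/flox arrays. The +/+ and +/flox arrays overlapped and the flox/flox arrays were well below them. The flox/flox minus +/+ difference was -2.12 ± 0.19, 4.34-fold lower, and +/flox cells had 6.45% of it (-2.30 and 13.8% without replicate 1 of MZ +/+). FO means were 2.38 in +/+ cells, 2.29 in +/flox cells and 2.21 in flox/flox cells, close to the minimum.

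Ms4a7 belongs to the family of four-span membrane proteins that includes CD20 and is known from macrophages. In MZ cells it read 7.55 and 7.65 on +/+ arrays, 7.56 and 7.55 on +/flox arrays, and 6.36 and 6.53 on flox/flox arrays. The +/+ and +/flox arrays were nearly equal and both flox/flox arrays were lower, by -1.15 ± 0.13 on the log2 scale. The heterozygous share was 3.70%. These were -1.21 and 7.88% without replicate 1 of MZ +/+. Macrophage markers did not separate the genotypes. The mean of 15 such markers was 3.99 and 3.54 in MZ flox/flox cells, against 4.17 and 3.48 in MZ +/+ cells, and 5 of them (C1qc, Cd14, Fcgr1, Cx3cr1 and Ccr2) were near the minimum on every array. A second, dimmer Ms4a7 probe set was 0.58 lower in MZ flox/flox cells and never exceeded 3.75.

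Gsn (gelsolin), which severs and caps actin filaments, was the most strongly read member. Its levels in MZ cells were 11.38 and 11.10 on +/+ arrays, 11.25 and 11.14 on +/flox arrays, and 10.64 and 10.32 on flox/flox arrays. Its levels in FO cells were 11.33 and 11.78 on +/+ arrays, 11.02 and 10.59 on +/flox arrays, and 9.68 and 9.58 on flox/flox arrays. In MZ cells +/flox lay within the span of +/+, whereas the FO genotypes did not overlap. The flox/flox minus +/+ difference was -0.76 ± 0.22 in MZ cells, of which +/flox cells had 5.75%. These were -0.62 and -15.8% without replicate 1 of MZ +/+. In FO cells the difference was -1.92 ± 0.22, of which +/flox cells had 39.0%. Of 6 Gsn probe sets, 4 exceeded a log2 value of 4 on all arrays, and their differences were -0.88 to -0.68 in MZ cells and -2.17 to -1.87 in FO cells. The heterozygous share differed between them: it was 39.0% in FO cells for the probe set used and 20.5% to 25.5% for the other 3, and -24.1% to 22.4% in MZ cells over the 4.

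Samsn1 (Hacs1), an SH3 and SAM domain adaptor known to restrain B cell activation, had smaller differences. In MZ cells it read 9.01 and 8.65 on +/+ arrays, 8.52 and 8.81 on +/flox arrays, and 7.997 and 8.29 on flox/flox arrays. In FO cells it read 9.572 and 9.93 on +/+ arrays, 9.24 and 9.569 on +/flox arrays, and 8.03 and 8.51 on flox/flox arrays. Both flox/flox arrays were lowest in each cell type, while +/flox and +/+ overlapped in MZ cells and all but touched in FO cells. The flox/flox minus +/+ difference was -0.69 ± 0.25 in MZ cells (-0.51 without replicate 1 of MZ +/+) and -1.48 ± 0.25 in FO cells. The heterozygous share was 24.8% in MZ cells (-1.48% without that array) and 23.4% in FO cells.

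Grip2, a PDZ scaffold known from AMPA receptor trafficking in neurons, was as low with 1 floxed allele as with 2 in MZ cells. In MZ cells it read 6.22 and 6.17 on +/+ arrays, 4.17 and 4.48 on +/flox arrays, and 4.73 and 4.30 on flox/flox arrays. The +/flox and flox/flox arrays overlapped, and all 4 were below the +/+ arrays. The +/flox minus +/+ difference was -1.87 ± 0.18 and the flox/flox minus +/+ difference -1.68 ± 0.18, so that +/flox cells had 111% of the homozygous difference. With replicate 1 of MZ +/+ left out, these differences were -1.85 and -1.65. All FO arrays were at the minimum. The MZ marker genes did not follow this pattern, with a mean of 11.98 and 12.61 in MZ +/+ cells, 12.43 and 12.57 in +/flox cells, and 12.11 and 12.44 in flox/flox cells.

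Levels set across the cell types carry a possible difference between normalization runs, since the lowest value was 2.21924 on all MZ arrays and 2.21262 on all FO arrays. As a description, MZ minus FO in +/+ cells was 5.38 for Ms4a7, 5.17 for Tspan15, 3.98 for Grip2, 2.32 for Ltk and 0.70 for Slc41a2. It was -0.22 for Chst11, -0.31 for Gsn, -0.92 for Samsn1, -3.74 for Car2 and -6.62 for Crisp3, which became -5.83 and -7.64 without replicate 1 of MZ +/+. The cell type with the higher +/+ level was not always the one with the larger difference. Ltk and Slc41a2 were higher in MZ cells and differed more in FO cells, and Chst11 was slightly lower in MZ cells and differed more there, none of which was tested.

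**Figure D2:**
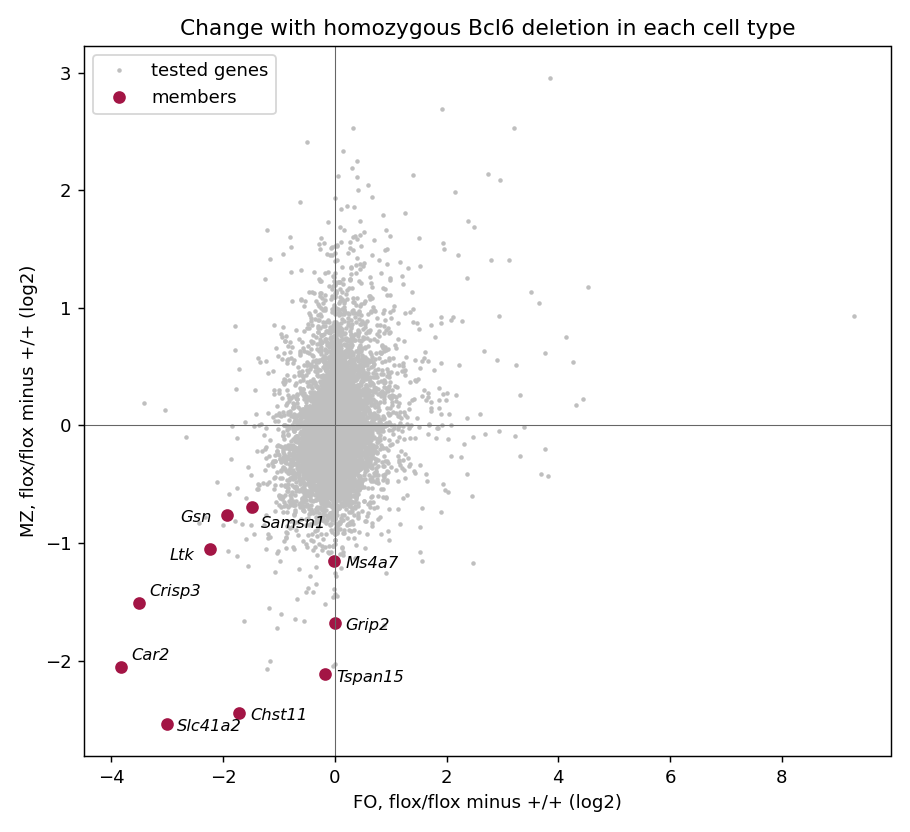
Flox/flox minus +/+ difference (log2) in MZ cells (y axis) against that in FO cells (x axis), with the 10 members marked among all tested genes. Slc41a2 lies low on both axes (-2.54 in MZ and -3.01 in FO cells), while Tspan15, Grip2 and Ms4a7 lie at or near 0 in FO cells.

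Whether 1 intact allele gave more or less than the midpoint of flox/flox and +/+ could be tested, because in this balanced design that value is independent of the difference that chose the genes. The p-values use the same residual SD as that difference, so they and the counts of members at an unadjusted p are not fully free of the choice. The limma fit used all 12 arrays, with Benjamini-Hochberg adjustment over all 9306 genes. No member passed at an adjusted p of 0.05 in either cell type (0 of 10 in MZ and 0 of the 7 read in FO cells), and 0.0107% of all genes did so in MZ cells (1 gene, Sh3bgrl2) and 0.0215% in FO cells (2 genes, Sh3bgrl2 and Pik3r6), named here after their values were seen. At an unadjusted p of 0.05, 4 members were called in MZ cells, against 4.14% of all genes, and 2 in FO cells, against 1.11%. In MZ cells Slc41a2, Tspan15 and Ms4a7 lay above the midpoint (1.54% of all genes) and Grip2 lay below it (2.6% of all genes). Of these, Tspan15, Grip2 and Ms4a7 passed the filter through MZ arrays alone. Their FO arrays near the minimum lower the shared residual SD, so the MZ count of 4 may be too high. In FO cells Slc41a2 and Ltk lay above the midpoint, as did 0.344% of all genes, while 0.763% lay below.

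The sizes of these unadjusted results were as follows. Slc41a2 +/flox cells averaged 7.68 in MZ cells, 0.76 ± 0.14 above the midpoint of 6.92 (limma, unadjusted p = 4.77e-04, adjusted p = 0.852). In FO cells Slc41a2 was 0.44 ± 0.14 above it (limma, unadjusted p = 0.0116, adjusted p = 1). Both +/flox arrays were above the midpoint in each cell type. Tspan15 was 0.92 ± 0.16 above the midpoint in MZ cells (limma, unadjusted p = 4.07e-04, adjusted p = 0.852) and Ms4a7 0.53 ± 0.11 above it (limma, unadjusted p = 0.00143, adjusted p = 0.852). Ltk was 1.03 ± 0.28 above it in FO cells (limma, unadjusted p = 0.00573, adjusted p = 1). Grip2 lay below it in MZ cells, at -1.03 ± 0.15 (limma, unadjusted p = 1.22e-04, adjusted p = 0.567), with both arrays below. For Tspan15, Grip2 and Ms4a7 the FO arrays at the minimum lower the shared residual SD, so these SEs and p-values may be too small. Without replicate 1 of MZ +/+ the unadjusted p in MZ cells was 0.00114 for Slc41a2, 9.70e-04 for Tspan15, 0.00310 for Ms4a7 and 4.14e-04 for Grip2 (limma, lowest adjusted p = 0.986), with 1.11% of all genes above and 1.33% below at that level.

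Among the MZ arrays, those of +/flox cells also read lowest in immediate early genes, which are switched on within minutes of stimulation and handling. The mean of 13 such genes in MZ cells was 11.96 and 10.77 on +/+ arrays, 8.22 and 10.16 on +/flox arrays, and 12.03 and 10.35 on flox/flox arrays. Both +/flox arrays were thus below the other 4, with replicate 2 (10.16) close to flox/flox replicate 2 (10.35). In FO cells it was 9.27 and 11.96 on +/+ arrays, 11.90 and 10.65 on +/flox arrays, and 12.07 and 10.94 on flox/flox arrays. Their part in the midpoint values was not tested.

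The MZ minus FO difference in the midpoint value did not pass for any member after adjustment (limma, lowest adjusted p = 0.972) nor for any of the 9306 genes, and 2.44% of all genes had an unadjusted p under 0.05. Of the 7 members read in both cell types, 0 had such a p, the lowest being that of Slc41a2 (limma, unadjusted p = 0.142). For Tspan15, Grip2 and Ms4a7 the FO value is held near 0 by the minimum, so that the difference repeats the MZ value, and it is not read.

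**Figure D3:**
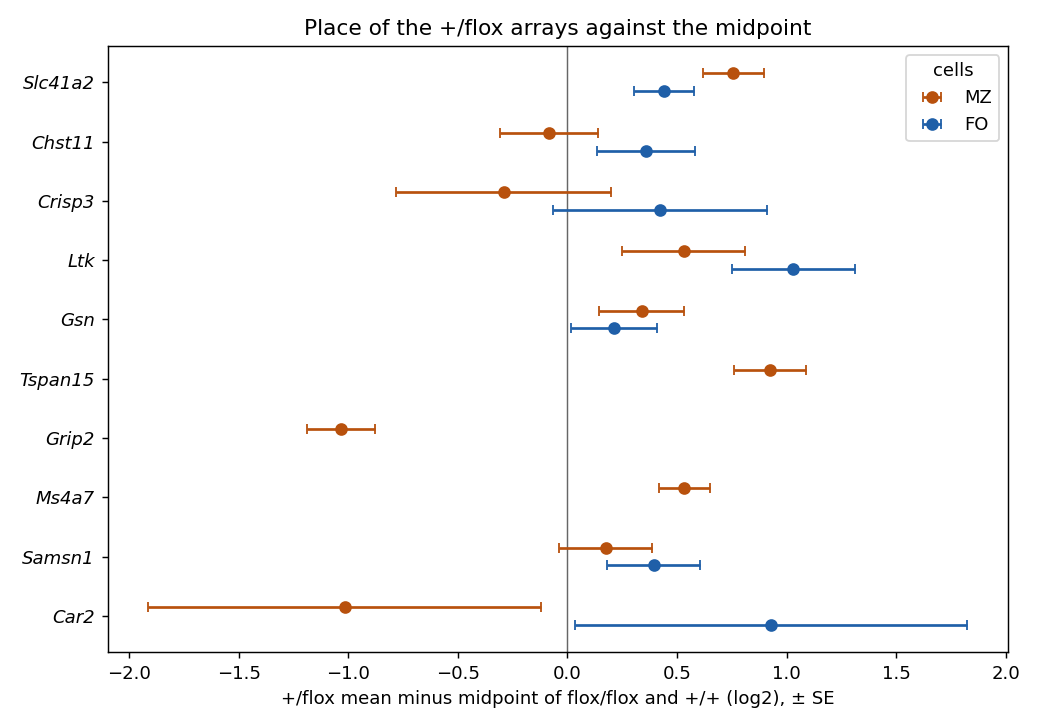
The +/flox mean minus the midpoint of the flox/flox and +/+ means (log2, points, ± SE) for each gene in MZ and FO cells, with 0 at the midpoint. In MZ cells Grip2 lies at -1.03 and Tspan15 at 0.92, while in FO cells the 7 readable genes lie above 0.

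The log2 scale matters for reading these shares. On the log2 scale +/flox lay above the midpoint for 6 of 10 members in MZ cells, against 45.5% of all tested genes, and for 7 of the 7 read in FO cells, against 48.3%. On the linear scale it lay above the midpoint for 6 of 10 in MZ cells, against 43.6% of all tested genes, and for 3 of 7 in FO cells, against 46.2%. Without replicate 1 of MZ +/+ the MZ count was 8 of 10 on either scale, against 46.9% of all genes in log2 units and 46.8% in linear units. Slc41a2 in FO cells had linear means of 180, 86.2 and 22.4 units in +/+, +/flox and flox/flox cells, so that +/flox cells had 59.5% of the homozygous difference, against 35.3% in log2 units. Over the 7 FO genes the median heterozygous share was 29.0% in log2 units and 53.4% in linear units. In MZ cells the shares of Tspan15, Ms4a7 and Ltk were 12.01%, 5.42% and 0.443% in linear units, and Chst11 had 73.3%. These linear shares became 24.2%, 11.3% and 23.0%, and 75.6% for Chst11, without replicate 1 of MZ +/+.

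Genes that share a pathway or family with the members were then examined for flox/flox against +/+, in 11 lists with 97 tested genes other than the members. In MZ cells 0 of 97 passed in either direction (limma, lowest adjusted p = 0.488), where 0.0107% of all genes rose and 0.0537% fell. In FO cells 1 of the 97 passed, upward (0.376% of all genes did so), and 0 passed downward (0.0537%). At an unadjusted p of 0.05, 3 were higher and 4 lower in MZ cells (2.27% and 3.81% of all genes), and 8 were higher and 4 lower in FO cells (4.57% and 2.41%). Without replicate 1 of MZ +/+, 0 of 97 passed in MZ cells (limma, lowest adjusted p = 0.335), with 2 higher and 1 lower at that unadjusted level (2.98% and 1.83% of all genes). The median difference over the 97 genes was -0.04 in MZ cells, against -0.08 over all tested genes, and -0.08 in FO cells, against 0.00.

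The gene that rose was Svil (supervillin), a membrane-linked actin-binding protein of the villin and gelsolin superfamily. It read 10.15 and 9.92 in FO flox/flox cells, against 8.47 and 8.47 in FO +/+ cells, a difference of 1.57 ± 0.24 (limma, adjusted p = 0.0363). The groups did not overlap. The call was lost when any of 10 of the 12 arrays was left out (limma, adjusted p = 0.0793 to 0.291), while the difference stayed between 1.45 and 1.68. In MZ cells Svil averaged 9.38 in flox/flox cells and 8.83 in +/+ cells, a difference of 0.55 that did not pass (limma, adjusted p = 0.801), and the MZ minus FO difference of -1.02 did not pass (limma, adjusted p = 0.975). In the same list of 14 tested genes, 7 were lower in FO flox/flox than in FO +/+ cells. The median FO difference of the list was 0.03, against 0.00 over all tested genes. The actin capping protein Capg of that list averaged 13.05 in FO flox/flox cells and 12.36 in FO +/+ cells (limma, adjusted p = 0.114). The actin depolymerising protein Dstn averaged 9.31 in FO flox/flox cells and 8.36 in FO +/+ cells (limma, adjusted p = 0.136).

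Relatives of the other members did not pass. Among 13 tested magnesium transport genes, the close relative Slc41a3 averaged 3.67 in FO flox/flox cells and 4.33 in FO +/+ cells (limma, adjusted p = 0.671). Slc41a1 averaged 8.22 in MZ flox/flox cells and 8.73 in MZ +/+ cells (limma, adjusted p = 0.801). In FO cells it averaged 7.88 in flox/flox and 7.90 in +/+ cells. Among 13 genes of chondroitin sulfate synthesis, Dse, which converts glucuronic to iduronic acid in the chain, averaged 6.52 in MZ flox/flox cells and 7.44 in MZ +/+ cells (limma, adjusted p = 0.488). In FO cells Dse went the other way, at 3.05 in flox/flox cells and 2.23, near the minimum, in +/+ cells (limma, adjusted p = 0.268). Among 8 Ms4a family genes, Ms4a4c averaged 12.51 in FO flox/flox cells and 13.42 in FO +/+ cells (limma, adjusted p = 0.221). Tmem176b, a more distant relative, averaged 7.01 in FO flox/flox cells and 5.30 in FO +/+ cells (limma, adjusted p = 0.128). No direction is shown for any of these genes.

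The remaining lists held partners of the members. The adaptor list around Samsn1 had 16 tested genes, of which 0 passed in either cell type. Their median was 0.06 in MZ cells and -0.26 in FO cells, against -0.08 and 0.00 over all tested genes. Grb2, a linker to Ras signalling, averaged 10.63 in FO flox/flox cells and 11.43 in FO +/+ cells (limma, adjusted p = 0.445). The list for Oct2, its coactivator and B cell genes known to use it had 7 tested genes, of which 0 passed. Their median was -0.23 in MZ cells and -0.04 in FO cells. The coactivator Pou2af1 averaged 13.73 in FO flox/flox cells and 14.18 in FO +/+ cells (limma, adjusted p = 0.592). Cd36, a scavenger receptor under Oct2 control in B cells, averaged 8.92 in FO flox/flox cells and 7.68 in FO +/+ cells (limma, adjusted p = 0.126), and 11.53 in MZ flox/flox cells and 11.91 in MZ +/+ cells (limma, adjusted p = 0.815). Notch2, in a list of 12 genes with ADAM10 and the other TspanC8 tetraspanins, averaged 12.18 in MZ flox/flox cells and 12.57 in MZ +/+ cells (limma, adjusted p = 0.801). The lists for carbonic anhydrases, CAP proteins, Ltk partners and Grip2 partners had 2, 2, 7 and 3 tested genes, of which 0 passed.

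**Figure D4:**
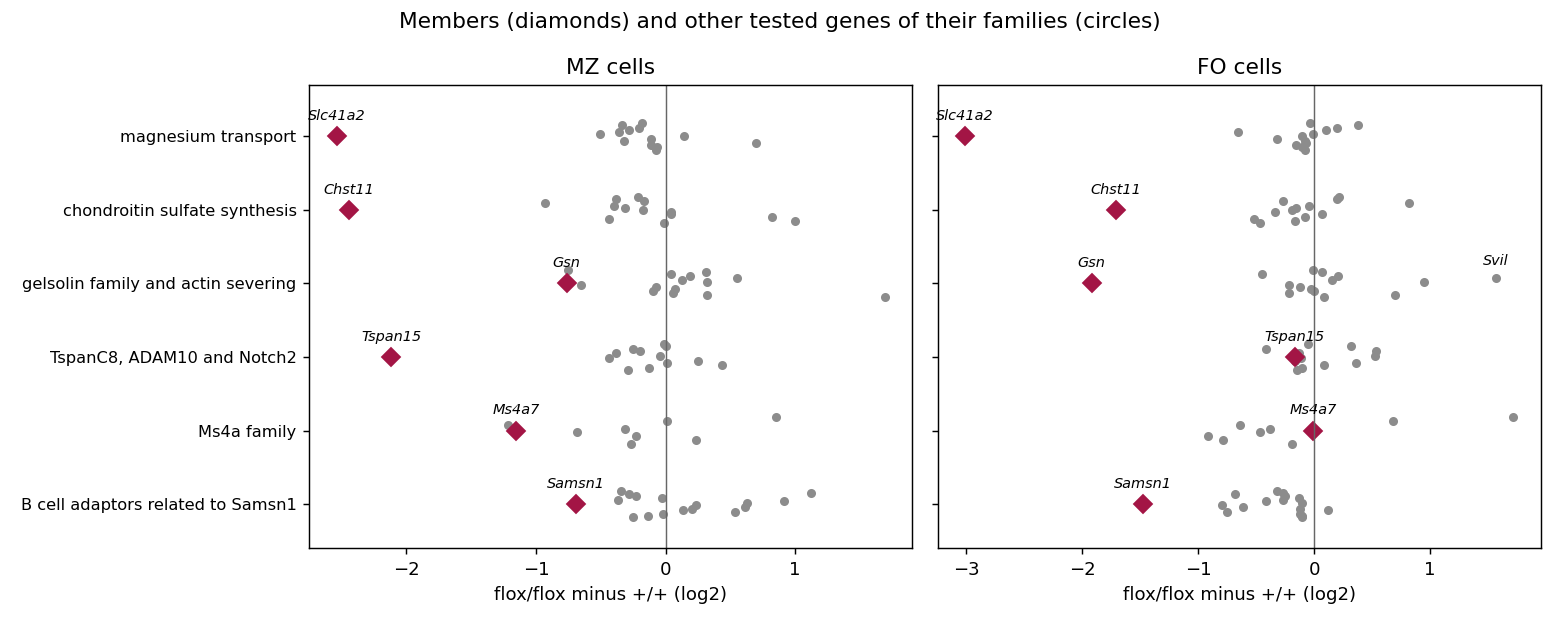
Flox/flox minus +/+ difference (log2, x axis) for members (diamonds) and the other tested genes of their families (circles), for 6 of the 11 lists, with a row per list and a panel per cell type. Slc41a2 lies at -2.54 in MZ and -3.01 in FO cells, and Svil, at 1.57 in FO cells, is the circle that passed the test.

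Slc41a2 and Chst11 are neighbours on chromosome 10 with 0 RefSeq genes starting between them, and they point towards each other, Chst11 on the plus strand and Slc41a2 on the minus strand. RefSeq has 26 genes starting within 500 kb of them, 15 of them protein coding, and 5 others than the pair were tested: Hcfc2, Nfyb, Txnrd1, D10Wsu102e and Washc4. Their flox/flox minus +/+ differences were -0.37 to 0.09 in MZ cells and -0.34 to 0.27 in FO cells. None of the 5 passed, at an adjusted p of 0.05 or an unadjusted one (limma, lowest adjusted p = 0.812 in MZ and 0.846 in FO cells). Their MZ differences were -0.36 to -0.10 without replicate 1 of MZ +/+. Nfyb, a subunit of the CCAAT-binding factor, was the lowest in FO cells at 8.39 in flox/flox and 8.74 in +/+ cells. Tspan15 is also on chromosome 10, with 568 RefSeq genes starting between it and Slc41a2, and Ltk and Gsn are both on chromosome 2 with 1497 between them.

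**Figure D5:**
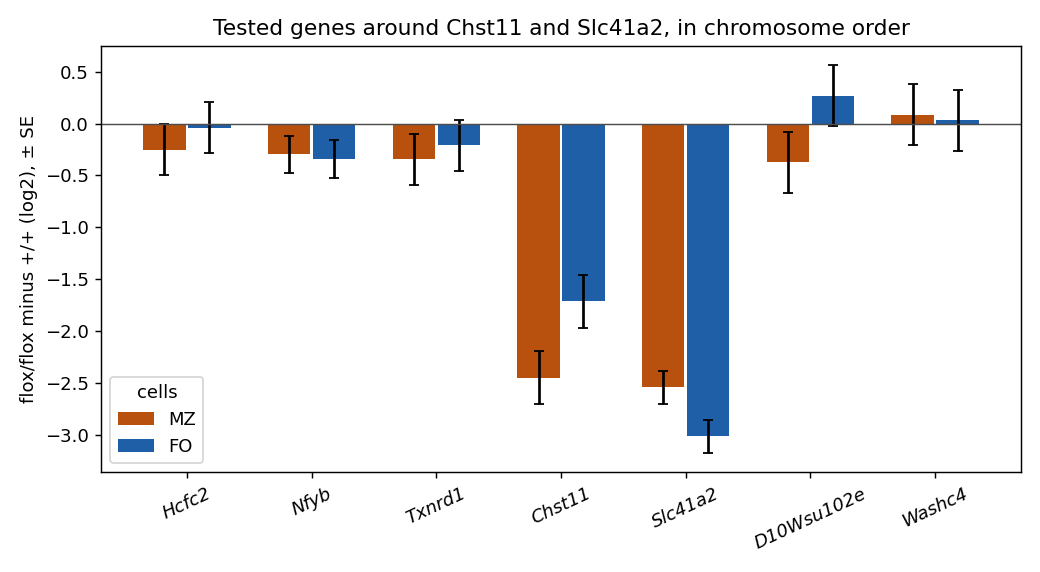
Flox/flox minus +/+ difference (log2, ± SE) in MZ and FO cells for the tested genes around Chst11 and Slc41a2, in chromosome order. Chst11 and Slc41a2 lie between -1.71 and -3.01, and the 5 genes beside them between -0.37 and 0.27.

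Genes with the pattern most like each member were found by the root mean square difference of log2 values over the 12 arrays. Each cell type's mean was removed first, and these genes are given as a description. The distance takes in the flox/flox drop that chose the members, so nothing is read from members that lie near one another. The pattern nearest to Slc41a2 among 9306 genes was that of its neighbour Chst11 (0.505, where the Slc41a2 pattern itself has a size of 1.18), followed by Ltk (0.585). Chst11 was nearest to Eaf2 (0.473) and St8sia6 (0.480), which had flox/flox minus +/+ differences of -1.65 and -1.19 in MZ cells and -0.72 and -1.56 in FO cells. Crisp3 and Car2 were each other's nearest pattern (0.603), which includes the high replicate 1 of MZ +/+, followed by Slc41a2 for Crisp3 (0.646) and Marcksl1 for Car2 (0.985).

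Other members also had members near them, which the choice of genes favours. Gsn was nearest to Samsn1 (0.291) and then Ddx25 (0.311), and Ltk to Pxdc1 (0.339) and then Samsn1 (0.401). Tspan15 was nearest to Ms4a7 (0.332), then to Tmed6 (0.336), which read -1.45 in MZ cells. Samsn1 was nearest to Ublcp1 (0.183) and the MHC class II gene H2-Eb2 (0.198), and Ms4a7 to Srgap3 (0.147) and Anxa4 (0.150). The drop of Grip2 with 1 floxed allele had its nearest likeness in Fmo5 (0.277) and Npr2 (0.292). Fmo5 read -1.36 for +/flox minus +/+ and -1.46 for flox/flox minus +/+ in MZ cells, and Npr2 read -1.004 and -0.97.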

How the data were processed

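The authors deposited log2 values for each probe set. Per the submitters' processing notes they used GCRMA, of which no source used here gives the version. GCRMA collects low values at a shared minimum, which understates differences of dim genes. Of 45101 probe sets, 34945 had 1 gene symbol in the platform annotation, 932 had several and 9224 had none listed or were controls; gene numbers of 34741 matched RefSeq. Each gene was read from its brightest probe set by mean and tested if that reached a log2 value of 4 on at least 2 arrays. Means of the 6 groups were fitted by lmFit and eBayes of limma 3.58.1 to all 12 arrays (R 4.3.3, two-sided, 6 residual degrees of freedom before moderation), with Benjamini-Hochberg adjustment over 9306 genes and a threshold of 0.05. The fits were tested on simulated data. The number of arrays limits the precision. A value within 0.5 of its cell type's minimum counts as near it. Members and lists were chosen with earlier results of these data known. Named are all 10 members, of each list up to 4 tested genes with the smallest p, tested neighbours within 500 kb of a neighbouring pair of members, and the 2 tested genes nearest each member in pattern; other genes are named as markers, as next in line to the choice, or after their values were seen. Alternatives changed the filter, probe sets, scaling, arrays, weights, moderation and replicate block.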

Additional observations from a re-analysis of the deposited data

How the results depend on the processing

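Of 362 alternative midpoint values for the members, 355 kept their direction and their side of the threshold. Without 1 array, 6 turned: Gsn in FO cells (-0.00488 to 0.43; lowest without +/flox replicate 1), Crisp3 in MZ cells (-0.80 to 0.22; 0.22 without +/+ replicate 1, 0.05 without +/flox replicate 1), Chst11 in MZ cells (-0.23 to 0.065; 0.013 without +/flox replicate 1, 0.065 without flox/flox replicate 1) and Car2 in MZ cells (-2.06 to 0.030; highest without +/+ replicate 1). Without MZ +/+ replicate 2, so that replicate 1 stood alone and was assumed to vary like the other groups, Car2 passed in MZ cells (-2.06, limma, adjusted p = 0.0165). The MZ flox/flox minus +/+ difference of Car2 was -4.15 to 0.037, the highest without +/+ replicate 1. Over all genes, calls against the midpoint in MZ cells were 1, against 4 with no filter, 0 with every probe set, with the 6 MZ arrays alone (also with the filter applied within them, chosen after seeing the data), or with trend and robust moderation, and 0 to 44 when 1 array was left out, the 44 without MZ +/+ replicate 2 (1 of them Car2). In FO cells they were 2, against 5 with no filter, 0 with the 6 FO arrays alone under either filter, and 2 to 3 when 1 array was left out. The MZ minus FO difference had 0 calls, against 2 with no filter and 0 to 1 when 1 array was left out. List genes called in MZ cells were 0, and 0 to 6 when 1 array was left out, the 6 without MZ +/+ replicate 2. In FO cells they were 1, against 0 with no filter, with every probe set or with the FO arrays alone, and 0 to 2 when 1 array was left out. Beyond the smaller number of arrays or the different set of genes tested, the cause of these shifts was not tested. Deviations of same-numbered arrays correlated at 0.45 to 0.77 in the 6 pairs of groups among MZ +/+, MZ flox/flox, FO +/flox and FO flox/flox, and at -0.26 to 0.58 in the other 9 pairs, of which 2 were over 0.1, so that the numbers were not taken to pair the samples although those 4 groups deviate together; with the replicate block the calls were 0 against the midpoint in MZ cells, 2 in FO cells and 1 list gene in FO cells, and with the FO +/+ numbers crossed, chosen after seeing the data, 2 in FO cells and 1 list gene. Levels near the minimum, as for Tspan15, Grip2 and Ms4a7 in FO cells, limit what could be seen there.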
